A study of Mus musculus with 9 samples.

Results

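The 48 genes described here copy the genome or divide the cell, and they were taken from the deposited gene table by symbol. They comprised 28 mitosis genes and 20 replication genes, out of 32671 genes in the table. All 48 had a row and passed the filter on low counts, which left 20794 genes to be tested. Whole-lung poly(A) RNA had been sequenced at day 21 in 3 groups of wild-type C57BL/6 mice with 3 libraries each. The LNP group had a bleomycin challenge and treatment with inhalable lipid nanoparticles, named mCas9/gSting@DOPS. The design text of the series gives the challenge, whereas the labels of its samples name the particles alone. Cas9 is a nuclease that cuts DNA where its guide directs it. The bleomycin group received bleomycin, a drug that breaks DNA and is used to provoke lung fibrosis, without particles. The control group received saline. Lung given particles that lacked the guide, or particles without bleomycin, was not analysed here, so the effect of the particle itself cannot be told apart from that of its cargo. Ages are not in the labels, nor is it stated there whether each sample is a separate animal. The p-values therefore refer to the spread among these samples, part or all of which may be technical.

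A dividing cell first loads the MCM helicase onto origins of replication and then fires them in S phase, when the polymerases, the sliding clamp and the enzymes that make deoxynucleotides are needed. The genes of this phase are transcribed from the G1/S transition on, largely under E2F transcription factors. The genes of mitosis, which build the spindle, hold chromosomes to it and license their separation, are transcribed later, in G2 and M, by the MuvB complex with B-MYB and FOXM1. That complex binds the cell cycle genes homology region (CHR), often beside CCAAT boxes bound by the factor NF-Y. Healthy adult lung holds few dividing cells, whereas epithelium, endothelium, fibroblasts and immune cells can all divide after injury. Whole-lung RNA does not separate these cell types, and fewer cells of a type cannot be told apart from less RNA per cell.

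The promoters of both sets are shown first because the sets differed in their motifs as well as in their expression. RefSeq promoters of the mouse GRCm38.p6 assembly, from 250 bases before to 50 bases after the annotated start, were found for 38 of the 48 members, 23 of the mitosis set and 15 of the replication set, as 24 and 16 promoters. Motifs of 3 kinds were searched on both strands, with overlaps allowed: the CHR as TTTGAA or TTTAAA, the CCAAT box as CCAAT, and an E2F core as TTGGCGC or TTGCCGC or TTCGCGC or TTCCCGC. Capitals mark the matches, and positions below count from 0 at the annotated start. The first 3 promoters belong to mitosis genes, namely Ccnb1 at chr13:100786437-100786736 (minus strand), Ccnb2 at chr9:70421505-70421804 (minus strand) and Cdc20 at chr4:118437294-118437593 (minus strand). Each holds at least 1 CHR and CCAAT boxes, and in Ccnb1 an E2F core on the reverse strand overlaps the first CCAAT box.
Ccnb1: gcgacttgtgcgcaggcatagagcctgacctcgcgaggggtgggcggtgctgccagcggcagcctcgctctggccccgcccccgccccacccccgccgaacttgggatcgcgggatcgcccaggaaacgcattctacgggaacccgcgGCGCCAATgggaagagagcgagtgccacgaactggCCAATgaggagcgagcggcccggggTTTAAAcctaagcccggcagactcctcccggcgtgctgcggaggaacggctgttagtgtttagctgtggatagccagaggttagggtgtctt
Ccnb2: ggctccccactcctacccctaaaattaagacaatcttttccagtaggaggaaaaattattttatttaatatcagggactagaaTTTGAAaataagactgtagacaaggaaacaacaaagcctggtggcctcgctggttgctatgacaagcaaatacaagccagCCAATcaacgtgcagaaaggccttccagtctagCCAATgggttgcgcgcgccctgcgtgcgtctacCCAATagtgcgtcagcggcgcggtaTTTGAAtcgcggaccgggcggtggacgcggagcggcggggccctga
Cdc20: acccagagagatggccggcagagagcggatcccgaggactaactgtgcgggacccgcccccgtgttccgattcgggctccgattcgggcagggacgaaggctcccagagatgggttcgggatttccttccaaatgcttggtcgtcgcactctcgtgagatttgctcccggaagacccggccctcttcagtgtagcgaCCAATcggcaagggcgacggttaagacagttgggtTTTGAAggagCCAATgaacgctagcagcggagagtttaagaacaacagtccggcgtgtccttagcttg
The next 2 belong to helicase genes, Mcm3 at chr1:20820263-20820562 (minus strand) and Mcm6 at chr1:128359656-128359955 (minus strand), and show E2F cores and no CHR. The last 2 belong to the replication genes with the highest fold changes between bleomycin and control lung, Ccne1 at chr7:38107441-38107740 (minus strand) and Rrm2 at chr12:24708004-24708303 (plus strand), and each holds TTTAAA close to the start. Neither holds TTTGAA. Rrm2 also holds a CCAAT box and, centred at -232, an E2F core on the reverse strand.
Mcm3: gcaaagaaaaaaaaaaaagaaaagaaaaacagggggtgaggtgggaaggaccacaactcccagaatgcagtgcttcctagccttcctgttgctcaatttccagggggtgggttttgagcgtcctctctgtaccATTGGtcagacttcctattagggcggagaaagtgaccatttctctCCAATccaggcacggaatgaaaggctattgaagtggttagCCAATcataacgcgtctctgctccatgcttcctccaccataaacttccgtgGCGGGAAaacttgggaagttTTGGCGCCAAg
Mcm6: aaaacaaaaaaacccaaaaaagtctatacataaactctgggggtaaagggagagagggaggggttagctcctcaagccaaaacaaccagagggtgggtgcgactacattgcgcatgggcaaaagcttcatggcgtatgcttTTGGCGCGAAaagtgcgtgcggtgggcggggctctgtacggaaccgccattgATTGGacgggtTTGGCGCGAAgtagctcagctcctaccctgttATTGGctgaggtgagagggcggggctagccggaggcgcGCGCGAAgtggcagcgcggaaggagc
Ccne1: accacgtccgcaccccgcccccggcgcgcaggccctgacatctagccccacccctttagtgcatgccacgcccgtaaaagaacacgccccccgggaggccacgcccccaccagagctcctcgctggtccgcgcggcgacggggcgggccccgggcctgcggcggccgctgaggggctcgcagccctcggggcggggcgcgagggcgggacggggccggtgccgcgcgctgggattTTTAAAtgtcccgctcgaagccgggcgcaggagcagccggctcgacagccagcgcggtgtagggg
Rrm2: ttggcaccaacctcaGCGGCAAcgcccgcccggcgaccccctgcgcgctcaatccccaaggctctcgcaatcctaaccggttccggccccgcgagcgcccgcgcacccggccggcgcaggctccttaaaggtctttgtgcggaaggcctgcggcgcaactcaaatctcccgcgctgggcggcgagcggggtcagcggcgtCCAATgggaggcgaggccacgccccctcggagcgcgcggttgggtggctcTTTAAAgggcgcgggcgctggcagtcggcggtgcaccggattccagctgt

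A CHR was present in 20 of 24 mitosis promoters (83.3%), in 5 of 16 replication promoters (31.2%) and in 27.6% of all 32851 promoters. The 5 replication genes with one were Ccne1, Cdc45, Mcm2, Mcm5 and Rrm2. The more specific form TTTGAA alone was present in 70.8% of mitosis, 12.5% of replication and 17.9% of all promoters. An E2F core showed the opposite order, with 10 of 16 replication promoters (62.5%), 3 of 24 mitosis promoters (12.5%) and 9.57% of all promoters. The 3 mitosis genes with an E2F core were Ccnb1, Cdk1 and Mki67. CCAAT boxes were common to both sets, at 79.2% of mitosis and 68.8% of replication promoters, against 37.4% of all promoters. CHR matches of the mitosis set had their median centre at -13 and CCAAT boxes at -64, whereas E2F cores of the replication set had theirs at -43. The CHR and E2F shares depended on the window. Within the 150 bases before the start the CHR was in 37.5% of mitosis, 12.5% of replication and 14.7% of all promoters. The E2F core was there in 12.5% of mitosis, 37.5% of replication and 5.47% of all promoters. A match is a description of these letters and not a measured binding site.

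**Figure D1:**
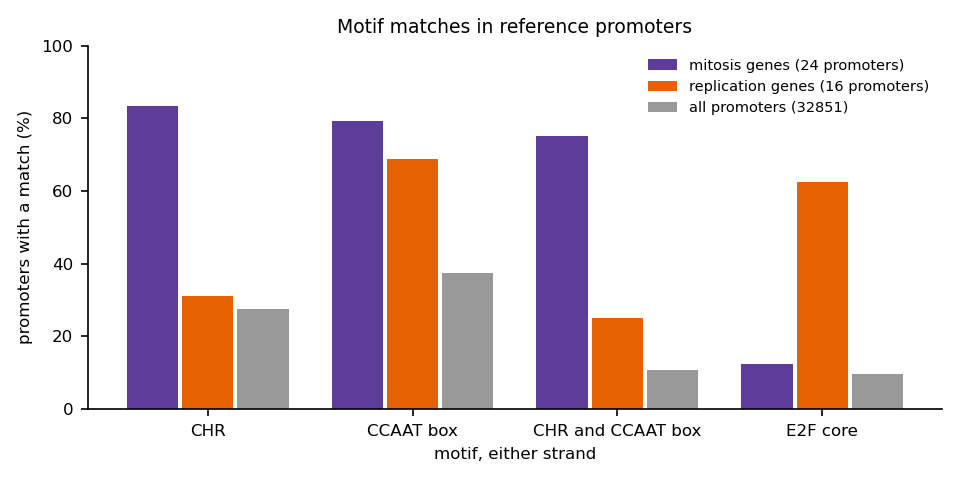
Share of RefSeq promoters (percent, vertical axis) that hold each motif on either strand, for the mitosis set (purple, 24 promoters), the replication set (orange, 16 promoters) and all 32851 promoters (grey). The CHR is at 83.3%, 31.2% and 27.6%, and the E2F core at 12.5%, 62.5% and 9.57%.

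Total gene counts ran from 56047830 to 69404903 per library. One library differed from all others, LNP replicate 3. It correlated with LNP replicates 1 and 2 at r = 0.957 and 0.958 on log2 CPM across genes, against 0.994 between those 2 libraries. Its 10 skeletal muscle markers summed to 8153 CPM and its 10 squamous epithelium markers to 1892 CPM, where the other 8 libraries had no more than 53.9 and 37.6 CPM. In bleomycin and in control lung 1 of the muscle and 3 of the squamous markers were at 0. Calls of members are also counted without it, and the fold changes of some single genes are given both ways. Sting1, the gene named by the guide, ran from 44.3 to 62.0 CPM in LNP, 40.5 to 53.8 CPM in bleomycin and 18.4 to 23.9 CPM in control libraries, and the LNP and bleomycin groups overlapped. Its RNA did not differ detectably between LNP and bleomycin lung (log2 fold change 0.22 ± 0.17, adjusted p = 0.477), and RNA does not measure editing of the gene. Levels below are in CPM, counts scaled to a common library size, after TMM, which sets library sizes so that most genes do not move. Each log2 fold change carries its standard error, and adjusted p-values are Benjamini-Hochberg values over all 20794 genes from edgeR's quasi-likelihood test. A gene was called at an adjusted p under 0.05.

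The member with the fewest reads was Ndc80, which had 36 reads in its lowest library, and Pcna had the most, with 5819 in its highest. Compared per transcript length in FPKM, the replication set was the more abundant in every group. The median level over its 20 genes was 4.31 FPKM in LNP, 3.29 FPKM in bleomycin and 2.83 FPKM in control lung, against 2.19, 2.66 and 0.692 FPKM for the 28 mitosis genes in the same order of groups. Pcna, the sliding clamp that holds polymerases on DNA and also serves repair, had the highest level of all members, at 26.8 ± 7.04 FPKM in LNP, 26.2 ± 1.83 FPKM in bleomycin and 25.8 ± 3.69 FPKM in control lung (SD, n = 3 each). In control lung the ranks below it were held by Mcm6, Mcm7, Mcm3 and Mcm4, and Cdc20, the activator of the anaphase-promoting complex, was the highest mitosis gene at rank 6. In bleomycin lung Ccnb2 and Cdc20 held ranks 2 and 3 among the 48. In LNP lung Mcm3 and Mcm6 held ranks 2 and 3 and Cdc20 rank 4, with Ccnb2 at rank 8. The means of neighbours in these orders lay within each other's SD in many cases, including Mcm3 (11.1 ± 3.14 FPKM) and Mcm6 (11.1 ± 1.42 FPKM) in LNP lung. The lowest level belonged to Ndc80 in LNP lung (0.346 ± 0.145 FPKM) and to Cenpf in bleomycin (0.332 ± 0.0664 FPKM) and control lung (0.0981 ± 0.0454 FPKM).

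**Figure D2:**
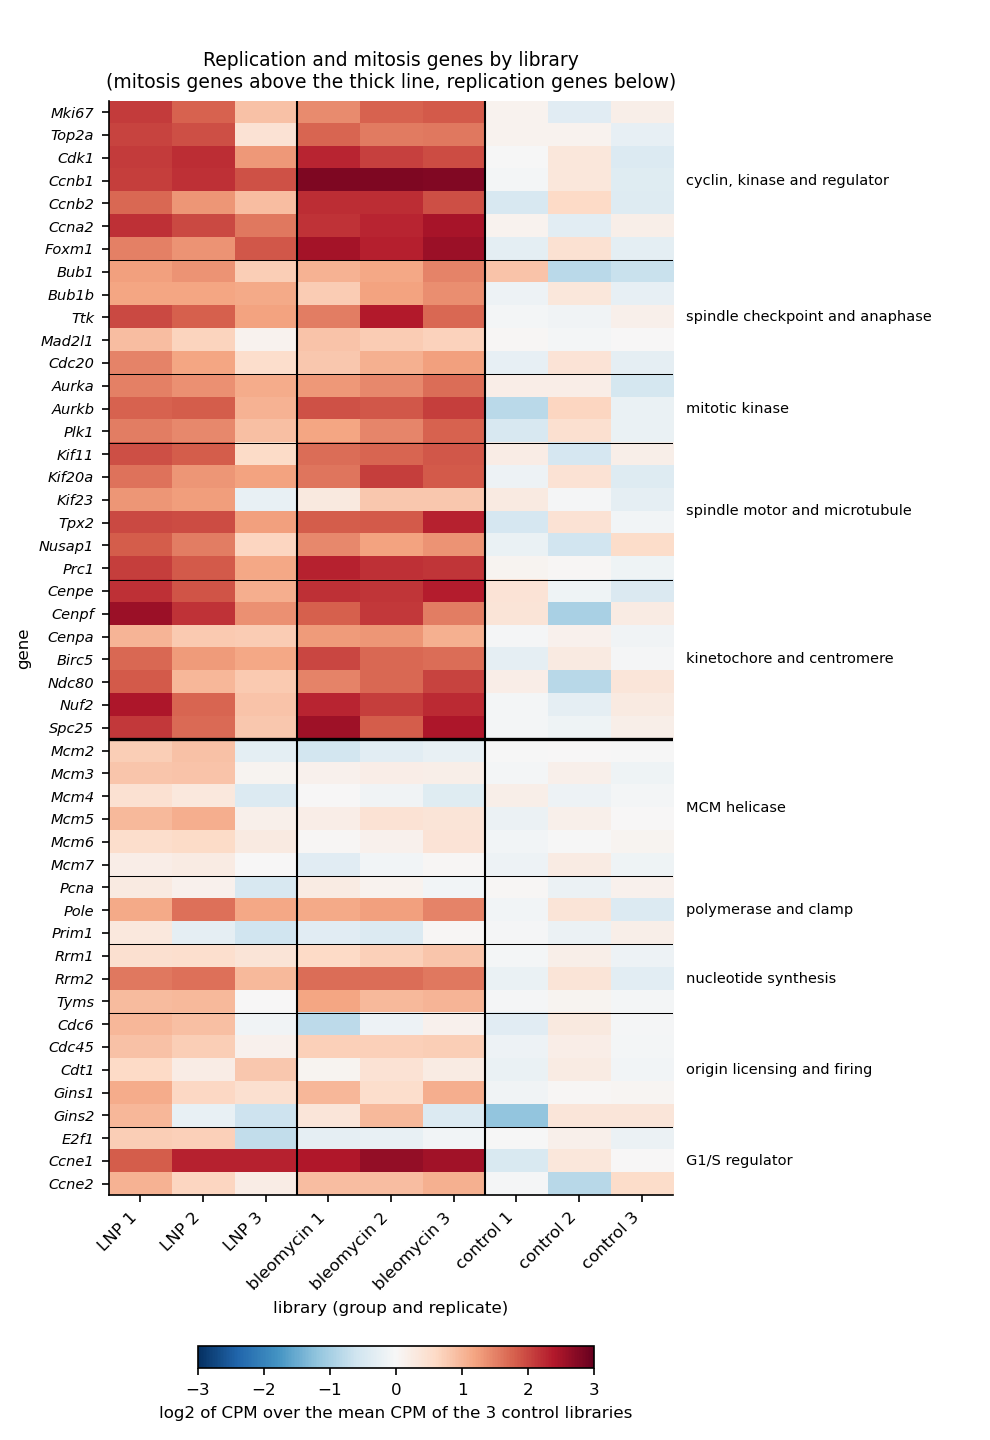
Log2 of the CPM of each member (rows, by role) over its mean CPM in the 3 control libraries, for the 9 libraries (columns, LNP then bleomycin then control). Mitosis genes, above the thick line, are over the control mean in every bleomycin and LNP library except Kif23 in LNP replicate 3, and 27 of 28 are lowest in LNP replicate 3 within their group. The median over the 6 MCM rows is 0.03, 0.03 and 0.11 in the bleomycin libraries, with Mcm2 below the control mean in all 3, and all 6 rows are above it in LNP replicates 1 and 2.

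The comparison of bleomycin with control lung asked which genes of the division cycle differed at day 21. The mitosis set rose almost as a whole and the replication set in part. Of the 28 mitosis genes 27 were higher in bleomycin lung, against 15.2% of all genes tested, and of the 20 replication genes 7 were higher. No member was lower, where 18.5% of all genes were. The median log2 fold change was 1.82 for mitosis genes and 0.30 for replication genes, against -0.046 over all genes tested. In all 28 mitosis genes and 9 of 20 replication genes every bleomycin library lay above every control library, as it did in 25.9% of all genes. In 1 replication gene, Mcm2, every bleomycin library lay below every control library, as in 29.6% of all genes.

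The cyclins and regulators of entry into mitosis all rose, 7 of 7, with a median log2 fold change of 2.12. Ccnb1, the cyclin B1 that activates the kinase CDK1, had 9.45, 10.2 and 8.4 CPM in LNP, 15.6, 15.6 and 15.2 CPM in bleomycin and 2.15, 2.80 and 1.73 CPM in control lung. The 3 bleomycin libraries were nearly equal, and all 3 control libraries lay far below them. The increase was 6.92-fold (log2 fold change 2.79 ± 0.21, adjusted p = 7.88e-05). Foxm1, the factor that activates the G2 and M genes, had 12.3, 11.1 and 15.7 CPM in LNP, 24.5, 21.7 and 25.5 CPM in bleomycin and 3.52, 5.90 and 3.56 CPM in control lung. It was 5.51-fold higher in bleomycin lung (log2 fold change 2.46 ± 0.24, adjusted p = 2.01e-04), again with no overlap. Ccna2, the cyclin A2 of S and G2 phase, rose with a log2 fold change of 2.31 ± 0.21 and Cdk1 with 2.10 ± 0.28. Ccnb2, a second B cyclin and the one with the highest level per length, had 18.2, 18.2 and 15.1 CPM in bleomycin libraries, against 2.84, 5.96 and 3.00 CPM in control libraries. The groups were far apart (log2 fold change 2.12 ± 0.32, adjusted p = 0.00119). Mki67, the antigen Ki-67 that coats mitotic chromosomes, and Top2a, the topoisomerase that untangles sister chromatids, rose less, by 1.69 and 1.63 on the log2 scale (adjusted p = 0.00234 and 0.00628).

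The mitotic kinases moved alike. Plk1, the polo-like kinase that matures centrosomes, had 9.16, 11 and 13.7 CPM in bleomycin libraries, against 2.90, 5.66 and 3.52 CPM in control libraries (log2 fold change 1.49 ± 0.29, adjusted p = 0.00454). Aurkb, the kinase of the chromosomal passenger complex that corrects faulty attachments, had 9.73, 9.42 and 10.9 CPM in bleomycin libraries, against 1.48, 4.06 and 2.27 CPM in control libraries (log2 fold change 1.94 ± 0.36, adjusted p = 0.00331). Aurka, which organises spindle poles, rose by 1.48 ± 0.24 (adjusted p = 0.00159). The libraries of both groups were well apart for all 3 kinases.

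Of 6 motor and microtubule genes 5 rose. Prc1, which bundles the microtubules of the central spindle, had 26.7, 24.5 and 23.9 CPM in bleomycin libraries, against 5.76, 5.49 and 4.95 CPM in control libraries, which was 4.63-fold higher (log2 fold change 2.21 ± 0.23, adjusted p = 2.33e-04). Tpx2, which activates Aurora A on spindle microtubules and had the highest level per length of this role, had 18.3, 18.7 and 25.5 CPM in bleomycin libraries, against 3.65, 6.99 and 4.92 CPM in control libraries (log2 fold change 2.01 ± 0.29, adjusted p = 0.00102). Kif20a and Kif11, kinesins of cytokinesis and of spindle bipolarity, rose by 1.86 and 1.76, and Nusap1, a spindle microtubule binder, by 1.34. Kif23, the kinesin of the central spindle, was the mitosis gene that was not called. It had 12.3, 11.7 and 4.20 CPM in the LNP, 6.01, 8.54 and 8.64 CPM in the bleomycin and 5.87, 4.80 and 4.05 CPM in the control libraries. Each bleomycin library exceeded each control library for Kif23, but the nearest pair differed by little, and the fitted difference was 0.66 ± 0.37 with an adjusted p of 0.196 and a 95% interval of -0.17 to 1.48.

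All 7 kinetochore and centromere genes rose, with log2 fold changes of 1.23 to 2.30. Birc5, the survivin of the passenger complex, had 13.9, 11.4 and 11.1 CPM in bleomycin libraries, against 2.86, 4.13 and 3.37 CPM in control libraries (log2 fold change 1.81 ± 0.23, adjusted p = 5.43e-04). Cenpa, the histone variant that marks centromeres, had the lowest fold change of the role with 18.5, 18.9 and 16.0 CPM in bleomycin libraries, against 7.42, 8.28 and 7.08 CPM in control libraries (log2 fold change 1.23 ± 0.15, adjusted p = 5.43e-04). Spc25, Nuf2 and Ndc80, subunits of the complex that grips microtubules, rose by 2.30, 2.2 and 1.76, and the large centromere proteins Cenpe and Cenpf by 2.23 and 1.84. All 5 checkpoint and anaphase genes rose as well, with log2 fold changes of 0.77 to 1.92. Cdc20 had 17.2, 20.5 and 23.1 CPM in bleomycin libraries, against 8.30, 12.9 and 8.18 CPM in control libraries (log2 fold change 1.05 ± 0.27, adjusted p = 0.0158), and Mad2l1, the checkpoint protein that inhibits CDC20, had 11.3, 10.6 and 10.1 CPM in bleomycin libraries, against 6.46, 6.04 and 6.26 CPM in control libraries (log2 fold change 0.77 ± 0.21, adjusted p = 0.0213). Mad2l1 thus had the second smallest fold change of the set, with groups that were nonetheless tight and apart. Ttk, the kinase that starts checkpoint signalling, rose by 1.92 ± 0.34 with 1.88, 3.37 and 2.13 CPM in bleomycin libraries, against 0.620, 0.605 and 0.715 CPM in control libraries. Bub1b and Bub1 rose by 1.14 and 1.25, the second with an adjusted p of 0.0491, just inside the threshold, and with control replicate 1 at 2.89 CPM beside 0.923 and 1.02 CPM in the other control libraries.

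The 6 MCM genes were not among the rises. They encode the ring-shaped helicase that unwinds DNA at the fork, and 0 of 6 were called in either direction by edgeR, with 0 at an unadjusted p under 0.05 and 0 called by DESeq2. Their median log2 fold change was 0.02. Mcm6, the most abundant of them per length, had 40.5, 43.2 and 52.3 CPM in bleomycin libraries, against 37.1, 39.1 and 41.6 CPM in control libraries (log2 fold change 0.21 ± 0.14, adjusted p = 0.285), and the groups overlapped. Mcm2 had 14.6, 17.2 and 18.4 CPM in bleomycin libraries, against 21.6, 21.9 and 21.2 CPM in control libraries, with each bleomycin library below each control library, but its difference was not called (log2 fold change -0.36 ± 0.26, adjusted p = 0.3; 95% interval -0.94 to 0.21). Mcm5 was the reverse case, with 18.9, 22.2 and 21.4 CPM in bleomycin libraries, against 14.4, 18.3 and 16.6 CPM in control libraries (log2 fold change 0.34 ± 0.23, adjusted p = 0.274). The 95% interval of Mcm5 was -0.17 to 0.85, so the absence of a call does not show an equal level. Pcna had 80.2, 71.9 and 63.6 CPM in bleomycin libraries, against 68.6, 59.6 and 73.3 CPM in control libraries and a difference of 0.10 ± 0.19 (adjusted p = 0.722).

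The 7 replication genes that rose came from several steps. Ccne1, the cyclin E1 that activates CDK2 at the G1/S transition, had 4.59, 6.48 and 6.46 CPM in LNP, 6.90, 8.13 and 7.53 CPM in bleomycin and 0.946, 1.65 and 1.32 CPM in control lung. It was 5.76-fold higher in bleomycin lung (log2 fold change 2.53 ± 0.27, adjusted p = 2.69e-04), second only to Ccnb1 among the 48 members. All 3 genes of nucleotide synthesis rose. Rrm2, the regulatory subunit of ribonucleotide reductase made in S phase, had 16.2, 16.2 and 15.1 CPM in bleomycin libraries, against 4.41, 6.65 and 4.07 CPM in control libraries (log2 fold change 1.65 ± 0.24, adjusted p = 0.0011). Rrm1, the large subunit of the same enzyme, had 56.7, 62.1 and 66.8 CPM in bleomycin libraries, against 36.1, 42.7 and 33.9 CPM in control libraries (log2 fold change 0.72 ± 0.13, adjusted p = 0.00278), and Tyms, which makes thymidylate, rose by 1.06 ± 0.24 (adjusted p = 0.00879). Pole, the catalytic subunit of the leading-strand polymerase, had 5.83, 6.22 and 7.42 CPM in bleomycin libraries, against 2.48, 3.45 and 1.99 CPM in control libraries (log2 fold change 1.30 ± 0.26, adjusted p = 0.00517). Gins1 and Cdc45, partners of the MCM ring in the active helicase, rose by 0.89 ± 0.29 and 0.73 ± 0.24 (adjusted p = 0.0376 and 0.0398).

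The remaining replication genes were not called. Cdc6, which loads the MCM ring on origins, had 1.46, 2.28 and 2.77 CPM in bleomycin libraries, against 2.01, 3.12 and 2.46 CPM in control libraries (log2 fold change -0.22 ± 0.36, adjusted p = 0.669), and its loading partner Cdt1 had a difference of 0.26. E2f1, the E2F factor of the G1/S transition, had 11.4, 11.7 and 12.9 CPM in bleomycin libraries, against 13.6, 15.3 and 12.1 CPM in control libraries (log2 fold change -0.19 ± 0.32, adjusted p = 0.681), and these groups overlapped as well. Prim1, the primase, differed by -0.23, and Ccne2, the second cyclin E, by 0.97 with an adjusted p of 0.0665. Gins2, another helicase partner, varied so much within groups that little could be read from it, with 31.7, 13.6 and 10.2 CPM in the LNP, 20.5, 31.2 and 12 CPM in the bleomycin and 7.00, 20.2 and 20.3 CPM in the control libraries. Its 95% interval for bleomycin against control was -0.74 to 1.58.

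The calls split along promoter motifs only in part. Of the 19 mitosis genes whose promoter held a CHR 18 rose, with a median log2 fold change of 1.76, and of the 4 with a promoter but no CHR (Bub1, Mad2l1, Nuf2 and Nusap1) 4 rose, with a median of 1.29. Of the 5 replication genes with a CHR 3 rose (Ccne1, Cdc45 and Rrm2) and Mcm2 and Mcm5 did not, whereas of the 10 without one 2 rose (Rrm1 and Tyms). Of the 9 replication genes with an E2F core 2 rose (Rrm1 and Rrm2). These counts are descriptions of a few genes, and their difference was not tested.

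Some of the 34 calls did not hold with 1 library fewer. With each of the 9 libraries left out in turn, Bub1 was called in 2 of 9 fits, Gins1 and Cdc45 in 3 of 9 and Mad2l1 in 4 of 9. Nusap1 and Cdc20 were called in 6 of 9, whereas Ccnb1, Foxm1, Ccne1 and Rrm2 were called in all 9. Without LNP replicate 3, which shares the model, 28 mitosis and 9 replication genes were higher and 0 lower, against 20.5% and 22.1% of all genes.

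The comparison of LNP with control lung, which shares its control libraries with the comparison above, asked what remained different from saline lung after treatment. The mitosis set was again higher. Of 28 mitosis genes 24 were called higher in LNP lung and none lower, against 4.95% and 3.08% of all genes (8.04% in either direction), with a median log2 fold change of 1.57. Of 20 replication genes 3 were higher, namely Ccne1, Rrm2 and Pole, with a median of 0.59, where the median over all genes tested was -0.0028. In 26 of the 28 mitosis genes every LNP library lay above every control library, as it did in 13.7% of all genes. The 4 mitosis genes not called were Bub1, Mad2l1, Ndc80 and Kif23. Without LNP replicate 3 the counts were 27 of 28 and 11 of 20, against 6.41% of all genes, and 0 members were lower, against 4.51%. The medians were then 1.77 for mitosis and 0.85 for replication genes. Without control replicate 1, and likewise without control replicate 3, the count was 14 mitosis genes. Over the fits with 1 library left out, 491 to 1369 of all genes were called higher. DESeq2 called 9 of the replication genes higher, and it also called more of all genes higher than edgeR did.

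Per library, the mitosis genes of LNP lung followed the spread of that group. Cdk1, the kinase that drives mitosis, had 16.4, 17.7 and 9.43 CPM in the LNP, 18.5, 15.8 and 14.9 CPM in the bleomycin and 3.77, 4.78 and 2.87 CPM in the control libraries. All 3 LNP libraries lay above the control libraries (log2 fold change 1.93 ± 0.27, adjusted p = 0.00368). Ccna2 had 21.8, 18.9 and 14.4 CPM in LNP libraries, against 5.11, 3.86 and 5.35 CPM in control libraries (log2 fold change 1.94 ± 0.21, adjusted p = 0.00112), and Ccnb1 was 4.19-fold higher (log2 fold change 2.07 ± 0.21, adjusted p = 8.22e-04). Cenpf, a centromere protein, had the highest fold change of the mitosis set in this comparison, with 9.77, 7.40 and 4.23 CPM in LNP libraries, against 2.14, 0.833 and 1.94 CPM in control libraries (log2 fold change 2.12 ± 0.41, adjusted p = 0.013). Ccne1 was the highest of all members, with a log2 fold change of 2.16 ± 0.26 (adjusted p = 0.00208) and no overlap. Rrm2 rose by 1.43 ± 0.24 and Pole by 1.33 ± 0.26 (adjusted p = 0.00724 and 0.0144).

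In all 4 genes that missed the threshold LNP replicate 3 was the lowest of its group, as it was in 27 of the 28 mitosis genes. Mad2l1 ran from 6.73 CPM in LNP replicate 3 to 11.8 CPM in LNP replicate 1, against 6.04 to 6.46 CPM in control libraries (log2 fold change 0.61 ± 0.21, adjusted p = 0.116), and without LNP replicate 3 it was called (log2 fold change 0.84, adjusted p = 0.00813). Kif23 had in LNP replicate 3 a level of 4.20 CPM, inside the range of the control libraries, and was called without that library (log2 fold change 1.33, adjusted p = 0.00455). Ndc80 had 3.50, 1.95 and 1.69 CPM in LNP libraries, against 1.13, 0.545 and 1.26 CPM in control libraries (log2 fold change 1.28 ± 0.40, adjusted p = 0.0813), and was called without LNP replicate 3 too (log2 fold change 1.52, adjusted p = 0.0354). Bub1 was not called with it (log2 fold change 1.13 ± 0.43, adjusted p = 0.144) or without it (log2 fold change 1.33, adjusted p = 0.0853). For Bub1, LNP replicate 3 at 2.70 CPM lay below control replicate 1 at 2.89 CPM.

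The 6 MCM genes all had positive differences between LNP and control lung, from 0.16 to 0.78 on the log2 scale, and 0 of 6 were called by edgeR. DESeq2 called 3 of them, and 3 reached an unadjusted p under 0.05. DESeq2 also called more of all genes than edgeR did, and the share at that unadjusted p is not given. These 2 counts therefore say little about the MCM genes. Mcm5, the one with the highest difference, had 32.1, 34.8 and 18.1 CPM in the LNP, 18.9, 22.2 and 21.4 CPM in the bleomycin and 14.4, 18.3 and 16.6 CPM in the control libraries. LNP replicates 1 and 2 lay far above every other library, and LNP replicate 3 lay within the control range (log2 fold change 0.78 ± 0.23, adjusted p = 0.0662). Mcm3 had 50.4, 50.7 and 30.0 CPM in the LNP, 30.8, 32.1 and 32.0 CPM in the bleomycin and 27.2, 31.3 and 26.0 CPM in the control libraries, with the same division inside the LNP group (log2 fold change 0.63 ± 0.19, adjusted p = 0.078). Without LNP replicate 3, Mcm2, Mcm3, Mcm5 and Mcm6 were called higher, as was E2f1 (log2 fold change 0.76, adjusted p = 0.01).

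**Figure D3:**
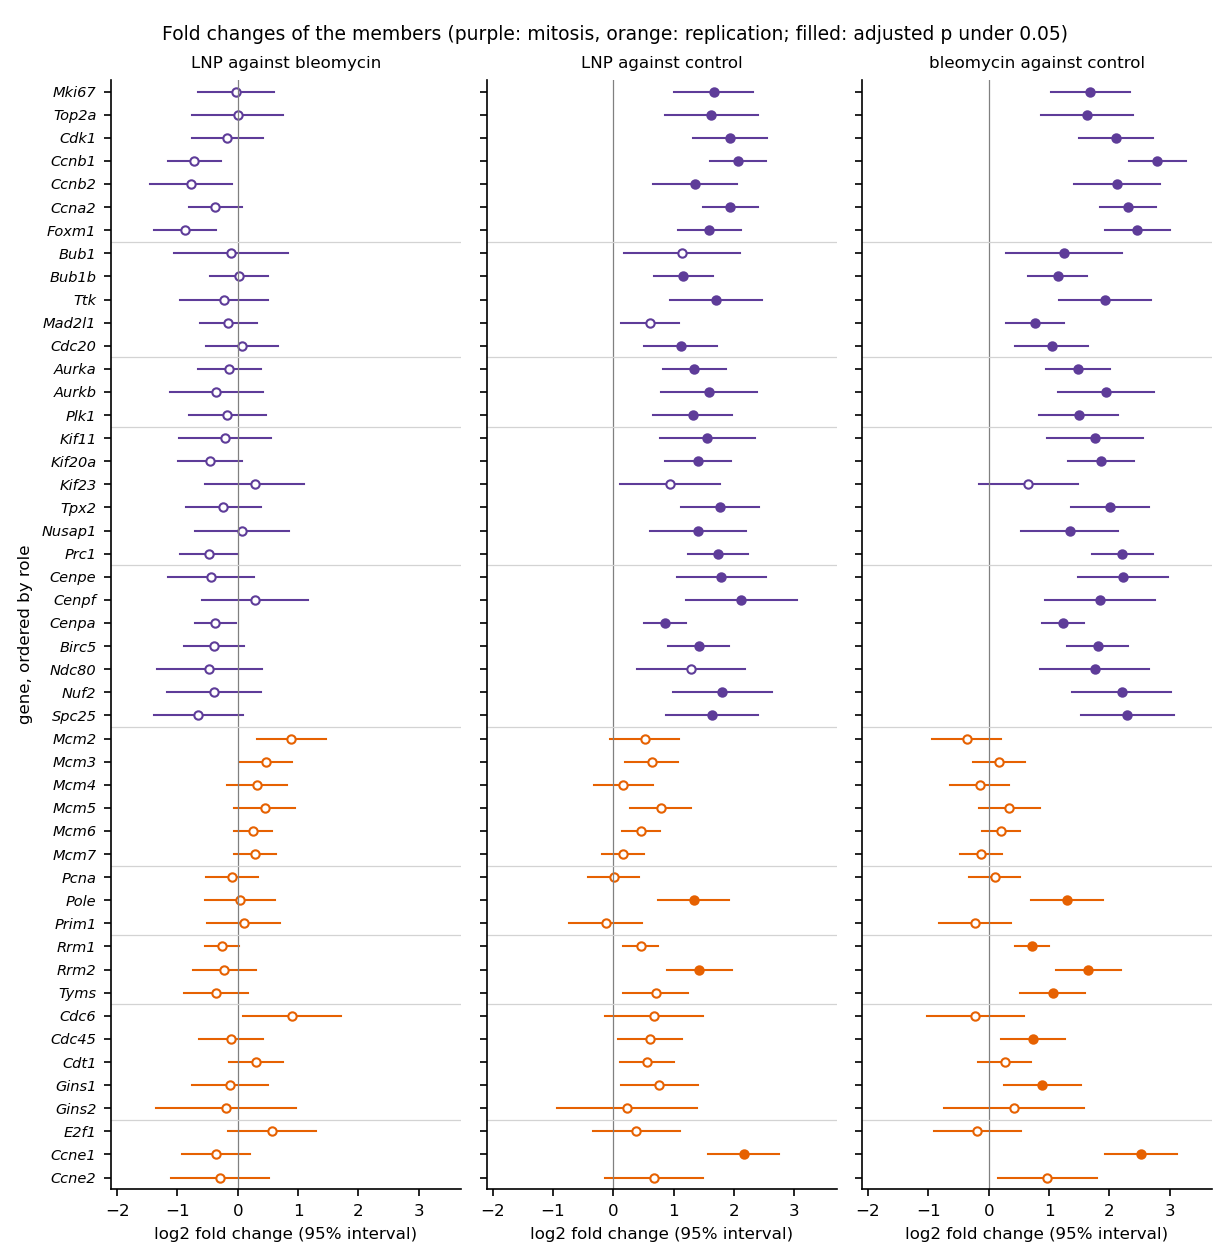
Log2 fold change (point) and 95% interval (line) of each member in LNP against bleomycin, LNP against control and bleomycin against control lung, with mitosis genes in purple, replication genes in orange and filled points for an adjusted p under 0.05. In the 2 comparisons with control 24 and 27 mitosis genes are filled, against 3 and 7 replication genes, and in LNP against bleomycin none is.

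The comparison of LNP with bleomycin lung is the one that bears on treatment. It shares its bleomycin libraries with the first comparison and its LNP libraries with the second. None of the 48 members was called by edgeR, where 4.28% of all genes were called higher, 1.87% lower and 6.16% in either direction. Unadjusted p-values were under 0.05 for 7 members, 4 mitosis genes that were lower and 3 replication genes that were higher. The share of all genes at that level is not given here, so this count says little about the members. DESeq2 called 3 members: Ccnb1 and Foxm1 as lower and Mcm2 as higher. That was a smaller share of the 48 than DESeq2 called of all genes, whose counts are given in the closing section. The median log2 fold change was -0.23 for mitosis genes and 0.07 for replication genes, against 0.038 over all genes tested. Without LNP replicate 3 these medians were -0.03, 0.14 and 0.013, so the lower mitosis median rested largely on that library. The 95% intervals of single members were wide, for example -0.75 to 0.74 for Top2a and -0.81 to 0.47 for Plk1, so the absence of calls does not show equal levels.

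The most negative fold changes of the 48 members were those of Foxm1, Ccnb2 and Ccnb1, activators of mitotic entry. Foxm1 had 12.3, 11.1 and 15.7 CPM in LNP libraries, against 24.5, 21.7 and 25.5 CPM in bleomycin libraries. Every LNP library lay below every bleomycin library, and the mean was 13.1 ± 2.41 CPM in LNP and 23.9 ± 1.96 CPM in bleomycin lung (SD, n = 3 each). The difference missed the threshold (log2 fold change -0.87 ± 0.23, adjusted p = 0.0536; 95% interval -1.38 to -0.36). Ccnb1 had 9.45, 10.2 and 8.4 CPM in LNP libraries, against 15.6, 15.6 and 15.2 CPM in bleomycin libraries, also without overlap (log2 fold change -0.72 ± 0.20, adjusted p = 0.06). Both stayed above every control library. Ccnb2 had 12.9, 9.85 and 7.42 CPM in LNP libraries, against 18.2, 18.2 and 15.1 CPM in bleomycin libraries (log2 fold change -0.77 ± 0.31, adjusted p = 0.152), and Cenpa had 15.4, 13.0 and 12.9 CPM in LNP libraries, against 18.5, 18.9 and 16.0 CPM in bleomycin libraries (log2 fold change -0.37 ± 0.15, adjusted p = 0.163). In all, 6 mitosis genes had every LNP library below every bleomycin library (Ccnb1, Ccnb2, Aurkb, Cenpa, Prc1 and Foxm1), as had 14.5% of all genes. Prc1 had 22.7, 19.4 and 12 CPM in LNP libraries, against 26.7, 24.5 and 23.9 CPM in bleomycin libraries (log2 fold change -0.47 ± 0.22, adjusted p = 0.206), and Aurkb differed by -0.36 ± 0.35 (adjusted p = 0.564). Without LNP replicate 3 the differences were -0.59 for Ccnb2, -0.33 for Cenpa, -0.25 for Prc1 and -0.15 for Aurkb. Other central genes had LNP and bleomycin libraries that overlapped. The difference was -0.02 ± 0.28 for Mki67 and -0.17 ± 0.26 for Cdk1. Mki67 had 34.9, 28.1 and 15.0 CPM in LNP libraries, against 21.9, 28.1 and 29.2 CPM in bleomycin libraries. Without LNP replicate 3 the differences were 0.26 for Mki67 and 0.06 for Cdk1, so their sign rested on that library.

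The MCM genes went the other way, with 6 of 6 differences above 0, from 0.26 to 0.89 on the log2 scale, and 0 of 6 called. Their sign was the same under TMM, relative log expression and library size scaling. Under these the median over all genes was 0.038, 0.028 and 0.16, a shift too small to turn any MCM difference. The equal sign therefore says nothing about the split inside the LNP group. Mcm2 had 35.8, 39.5 and 17.7 CPM in LNP libraries, against 14.6, 17.2 and 18.4 CPM in bleomycin libraries. LNP replicates 1 and 2 lay far above every bleomycin library and LNP replicate 3 inside the bleomycin range (log2 fold change 0.89 ± 0.26, adjusted p = 0.0727). Cdc6 had 5.05, 4.73 and 2.35 CPM in LNP libraries, against 1.46, 2.28 and 2.77 CPM in bleomycin libraries (log2 fold change 0.90 ± 0.36, adjusted p = 0.159), and E2f1 had 22.6, 22.5 and 8.19 CPM in LNP libraries, against 11.4, 11.7 and 12.9 CPM in bleomycin libraries (log2 fold change 0.57 ± 0.32, adjusted p = 0.309). Both repeated the pattern of Mcm2, with LNP replicate 3 inside the bleomycin range for Cdc6 and below it for E2f1. Rrm1, Tyms and Ccne1 were the 3 of 20 replication genes with every LNP library below every bleomycin library. Of all genes 14.5% had this separation, so the count says little about the replication set. The differences of these 3 genes were -0.26 ± 0.13, -0.36 ± 0.24 and -0.36 ± 0.25, with adjusted p-values of 0.234, 0.386 and 0.406. Without LNP replicate 3 they were -0.23, -0.11 and -0.44. Pcna (-0.09 ± 0.19) and Pole (0.03 ± 0.26) were close to 0. No member had every LNP library above every bleomycin library, as 15.4% of all genes had.

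Without LNP replicate 3 this comparison called 8 members, where 14.0% of all genes were called higher and 10.7% lower. Foxm1 (log2 fold change -1.02, adjusted p = 0.0108) and Ccnb1 (log2 fold change -0.65, adjusted p = 0.0432) were lower. Mcm2 (log2 fold change 1.17, adjusted p = 4.03e-04), Mcm3 (log2 fold change 0.68, adjusted p = 0.00367), Mcm4 (log2 fold change 0.54, adjusted p = 0.0298), Mcm5 (log2 fold change 0.69, adjusted p = 0.00852), Cdc6 (log2 fold change 1.17, adjusted p = 0.0199) and E2f1 (log2 fold change 0.92, adjusted p = 0.0021) were higher. The only other library whose removal gave calls was control replicate 2, without which Foxm1 and Ccnb1 were called.

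**Figure D4:**
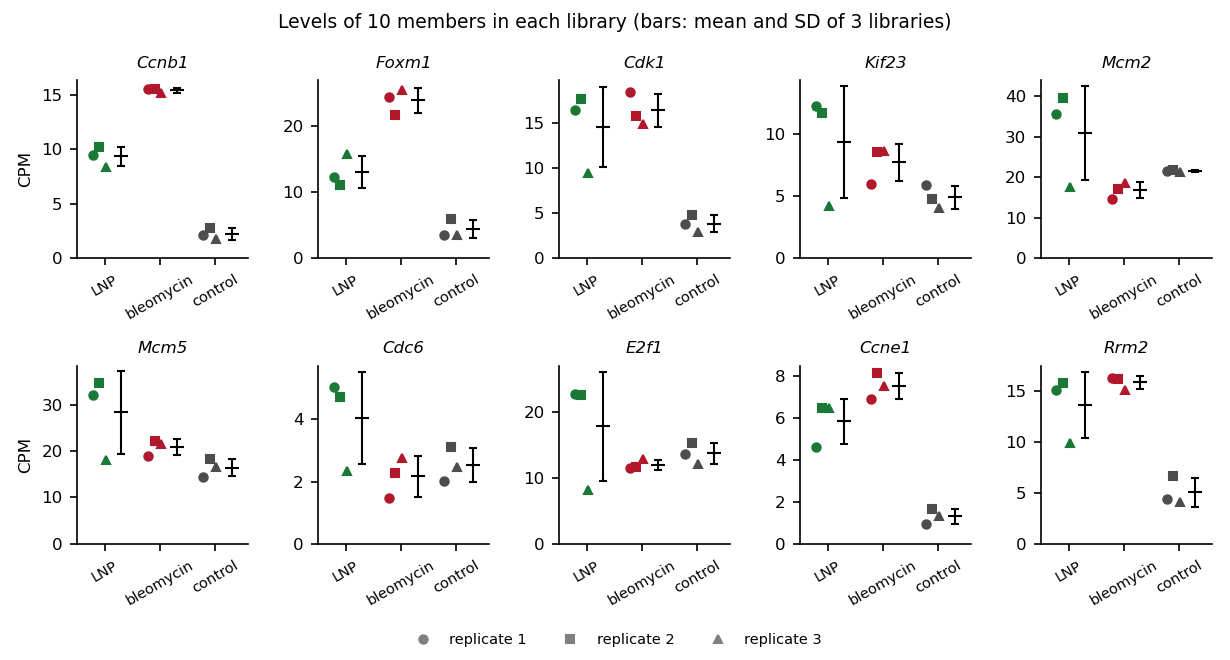
CPM (vertical axes, each from 0) of 10 members in each LNP, bleomycin and control library, with the mean and SD of each group in black and replicates told apart by shape. Ccnb1 and Foxm1 lie between control and bleomycin levels in LNP lung, whereas Mcm2, Mcm5, Cdc6 and E2f1 are high in LNP replicates 1 and 2 and not in LNP replicate 3.

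LNP replicate 3 was the lowest library of its group for 44 of the 48 members, 27 of 28 mitosis genes and 17 of 20 replication genes. Foxm1 and Cdt1 were the members for which it was the highest, with 15.7 CPM for Foxm1 and 16.9 CPM for Cdt1. LNP replicates 1 and 2 both lay above the other 7 libraries for 7 replication genes, namely Mcm2, Mcm3, Mcm4, Mcm5, Mcm6, Cdc6 and E2f1. The same held for 4 mitosis genes, namely Top2a, Kif23, Cenpf and Nusap1, and for 5.53% of all genes tested.

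Comparing the sets inside each library removes whatever scales both alike. The median over mitosis genes of the log2 level relative to the control mean was 1.91, 1.66 and 1.07 in the LNP libraries, 1.73, 1.82 and 1.87 in the bleomycin libraries and -0.03, 0.08 and -0.11 in the control libraries. The same median over replication genes was 0.87, 0.73 and 0.11 in LNP, 0.23, 0.44 and 0.33 in bleomycin and -0.07, 0.16 and -0.03 in control libraries. LNP replicate 3 was thus low in both sets. The mitosis median minus the replication median was 1.04, 0.93 and 0.96 in LNP, 1.5, 1.38 and 1.54 in bleomycin and 0.04, -0.09 and -0.08 in control libraries. On this difference the 3 LNP libraries were close to each other and all lay below the bleomycin libraries and above the control libraries. It does not depend on library scaling, and in FPKM it was 1.06, 0.93 and 0.96 in LNP and 1.5, 1.41 and 1.55 in bleomycin libraries. For the 6 MCM genes the median level relative to control was 0.63, 0.72 and 0.07 in LNP, 0.03, 0.03 and 0.11 in bleomycin and -0.06, 0.09 and -0.03 in control libraries. No p is given for these medians, since the members were chosen with results of these data known.

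**Figure D5:**
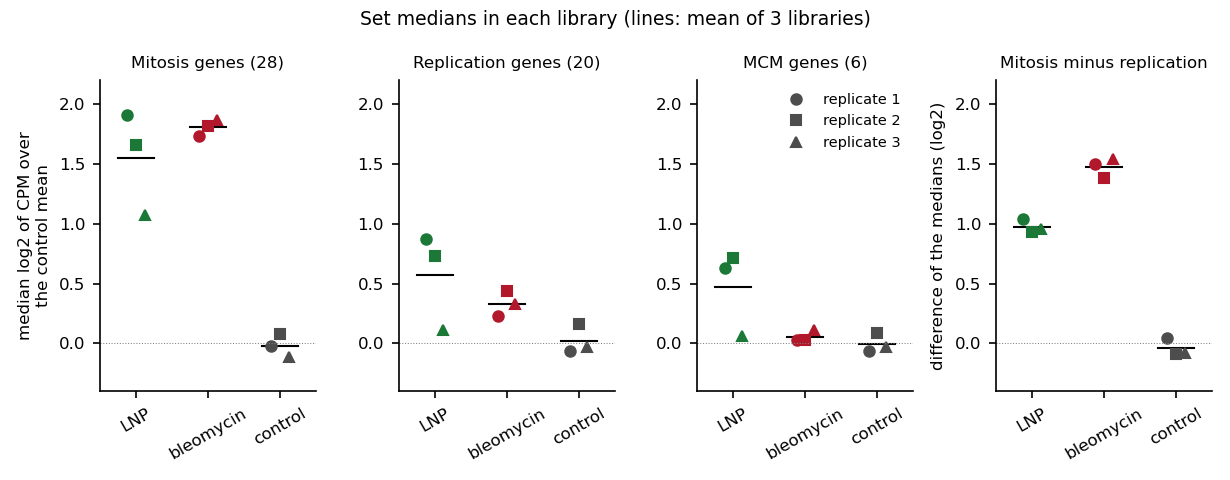
Median over each set of the log2 CPM relative to the control mean, and mitosis minus replication, in each library (points, shape by replicate) with the mean of 3 libraries (line). The difference is 0.93 to 1.04 in LNP, 1.38 to 1.54 in bleomycin and -0.09 to 0.04 in control libraries, although LNP replicate 3 is low in each set.

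Related genes outside the 48 members gave the same division in part. Against control lung, 29 of 50 other mitosis genes were called higher and 0 lower in LNP lung, with a median log2 fold change of 1.27. Of all genes 4.95% were higher and 3.08% lower in that comparison. In bleomycin lung 39 of the 50 were called higher and 2 lower, against 15.2% and 18.5% of all genes, with a median of 1.5. Anln, an actin binder of the cleavage furrow, had 17, 16.5 and 17.4 CPM in the LNP, 22.5, 25.6 and 27.6 CPM in the bleomycin and 6.20, 7.67 and 7.09 CPM in the control libraries. It rose in bleomycin lung (log2 fold change 1.85 ± 0.15, adjusted p = 8.82e-05) but less so in LNP lung, where it lay below bleomycin lung (log2 fold change -0.57 ± 0.14, adjusted p = 0.0478), with LNP libraries that agreed closely. The other gene of that list called between LNP and bleomycin by edgeR was Pttg1, while DESeq2 called 10 of the 50 and 10 reached an unadjusted p under 0.05. Of all genes edgeR called 4.28% higher and 1.87% lower there, and DESeq2 called more. These counts therefore say little about the list. Pttg1 is the securin that restrains sister separation. Pttg1 had 35.4, 28.9 and 27.5 CPM in the LNP, 17.5, 18.8 and 21.5 CPM in the bleomycin and 39.5, 49.5 and 42.4 CPM in the control libraries. It went against the list, with less RNA in bleomycin than in control lung (log2 fold change -1.19 ± 0.15, adjusted p = 6.33e-04) and higher in LNP than in bleomycin lung (log2 fold change 0.67 ± 0.15, adjusted p = 0.0349). Tacc3 and Racgap1, of the spindle and of cytokinesis, rose by 1.49 and 1.33 in LNP lung and by 1.82 and 1.74 in bleomycin lung, both against control.

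Of 43 other replication genes 8 were called higher and 0 lower in LNP lung against control (median 0.36), against 4.95% and 3.08% of all genes. In bleomycin lung against control 14 were called higher and 2 lower (median 0.23), against 15.2% and 18.5% of all genes. Between LNP and bleomycin 0 were called by edgeR, where 6.16% of all genes were called. There 5 had an unadjusted p under 0.05 and 2 were called by DESeq2. DESeq2 called more of all genes than edgeR did, and the share of all genes at that unadjusted p is not given. These 2 counts therefore say little about the list. Those that rose in bleomycin lung included Chaf1b, of the chromatin assembly factor (log2 fold change 1.67 ± 0.25, adjusted p = 0.00123), Tk1, the S phase thymidine kinase (log2 fold change 1.59 ± 0.24, adjusted p = 0.00138), and Clspn, the checkpoint adaptor claspin (log2 fold change 1.94 ± 0.30, adjusted p = 0.00141). The 2 that fell were Pola2 and Pold1, subunits of the priming and the lagging-strand polymerase. Pold1 had 29.4, 25.3 and 25.3 CPM in LNP, 13.2, 17.8 and 20.1 CPM in bleomycin and 29.1, 32.1 and 26.0 CPM in control lung, and was called lower in bleomycin against control (log2 fold change -0.77 ± 0.17, adjusted p = 0.00856). Its LNP libraries overlapped the control libraries.

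Among 23 genes of the G1 cyclins, E2F factors and the DREAM and MuvB complexes, bleomycin lung had 7 called higher and 3 called lower against control. Mybl2, the B-MYB partner of MuvB, rose (log2 fold change 1.76 ± 0.36, adjusted p = 0.00509), as did E2f8, an E2F that represses (log2 fold change 1.20 ± 0.29, adjusted p = 0.0109). E2f2, an activating E2F, fell to 14.2, 17.1 and 15.2 CPM in bleomycin libraries, against 37.9, 48.4 and 30.5 CPM in control libraries (log2 fold change -1.33 ± 0.27, adjusted p = 0.00477), and Lin52, a MuvB subunit, fell too (log2 fold change -0.93 ± 0.15, adjusted p = 0.00153). Of 7 CDK inhibitors 4 were higher and 1 lower. Cdkn1a, the inhibitor of CDK2 that p53 induces, had 283, 353 and 512 CPM in the LNP, 790.4, 633 and 506 CPM in the bleomycin and 199.5, 244 and 172 CPM in the control libraries. The bleomycin libraries were all above the control libraries (log2 fold change 1.65 ± 0.25, adjusted p = 0.00129), while the increase after LNP was not called (log2 fold change 0.90 ± 0.25, adjusted p = 0.0531). Cdkn1b, an inhibitor abundant in resting cells, was lower than in control lung both after LNP (log2 fold change -0.72 ± 0.11, adjusted p = 0.00412) and after bleomycin alone (log2 fold change -0.86 ± 0.11, adjusted p = 5.21e-04). Of 14 tested genes of replication stress and repair 3 rose and 1 fell in bleomycin lung, Rad51ap1, Fanci and Brca1 among the rises and Rrm2b, the p53-induced reductase subunit, as the fall (log2 fold change -0.88 ± 0.28, adjusted p = 0.0365). Of all genes 15.2% rose and 18.5% fell in that comparison, so the counts of the stress list say little about that list. None of the CDK inhibitors, G1 genes or stress genes was called between LNP and bleomycin by edgeR, where 6.16% of all genes were called. In the same order 4, 3 and 1 had an unadjusted p under 0.05, and 2, 2 and 0 were called by DESeq2. DESeq2 called more of all genes than edgeR did, and the share at that unadjusted p is not given, so these counts say little. Without LNP replicate 3, 4 of the 7 inhibitors were called lower in LNP lung against bleomycin lung, and none higher. Of the 23 G1 genes 5 were called higher and 1 lower, of the 43 other replication genes 8 and 1, of the 50 other mitosis genes 3 and 3, and of the 14 stress genes 2 and 0. Of all genes 14.0% were called higher and 10.7% lower in that fit.

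Cell type markers moved between the groups as well, and their part in the differences above was not tested. The 8 B cell markers summed to 183 to 187 CPM in LNP, 16.6 to 17.8 CPM in bleomycin and 143 to 198 CPM in control libraries, with none at 0, and all 8 were called higher in LNP lung against bleomycin lung. The 8 T cell markers summed to 69.3 to 91.8 CPM in LNP, 19.4 to 20.8 CPM in bleomycin and 71.4 to 79.4 CPM in control libraries, with none at 0, and all 8 were called higher in LNP lung against bleomycin lung. Of all genes 4.28% were called higher there and 1.87% lower. In that comparison 2 of 10 macrophage markers were called lower, and 1 of 5 tested thymocyte and 1 of 7 tested squamous markers higher. No lung, skeletal muscle or erythroid marker was called in it. In LNP replicates 1, 2 and 3 in turn, the B cell sum was 183, 184 and 187, the T cell sum 82.1, 91.8 and 69.3, the lung sum 34397, 26653 and 14503 and the erythroid sum 5067, 2901 and 804 CPM. The 10 macrophage markers summed to 4209, 6251 and 11095 CPM in LNP replicates 1, 2 and 3, 9721 to 9987 CPM in bleomycin and 1127 to 1467 CPM in control libraries, with none at 0. The 10 lung epithelial and endothelial markers summed to 14503 to 34397 CPM in LNP, 17555 to 19772 CPM in bleomycin and 46289 to 58714 CPM in control libraries, with none at 0. The 8 thymocyte markers, of a dividing immature cell, summed to 14.7 to 16.0 CPM in LNP, 7.11 to 8.71 CPM in bleomycin and 21.1 to 22.8 CPM in control libraries, with 1 of the 8 at 0 in each group. The 8 erythroid markers varied within groups, from 804 to 5067 CPM in LNP, 722 to 11198 CPM in bleomycin and 6281 to 7812 CPM in control libraries, with none at 0.

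The coordinates of the gene table carry no named build. They differ from the GRCm38.p6 positions of the promoters above and are not to be combined with them. They place Ccnb1 (ENSMUSG00000041431) at chr13:100915158-100923078 (minus strand), Foxm1 (ENSMUSG00000001517) at chr6:128339930-128353109 (plus strand), Mcm2 (ENSMUSG00000002870) at chr6:88860456-88875762 (minus strand), and E2f1 (ENSMUSG00000027490) at chr2:154401327-154411812 (minus strand). The most abundant transcript held a median of 92.8% of a member's counts, and over 50% in 44 of 48 members. The exceptions were Tpx2, Cenpa, Prc1 and Mad2l1, whose leading transcripts held 28.4%, 42.0%, 43.4% and 43.8%. For Tpx2 the share of that transcript ran from 0% to 81.4% among the LNP libraries, so the split of its reads between transcripts was unstable and only gene sums were compared. For Foxm1 a single transcript held 99% of the counts and for Mcm2 99.7%.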

How the data were processed

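Whole-lung RNA of 9 mouse libraries, 3 in each of 3 groups, was analysed from gene and transcript tables. The counts per gene are deposited as the authors made them, and the FPKM values beside them (fragments scaled to transcript length and library size) were computed by the authors, per the file headers. Poly(A) RNA was sequenced from paired ends with the dUTP strand marking, per the labels' protocols. The tools fastp, StringTie and edgeR are named in the submitters' processing notes, without versions. The aligner, the genome build and whether strand was used in counting are not given in the sources consulted, so a member that overlaps another gene may share its reads. For all 48 members the gene count equalled the sum over its transcripts. Every pair of libraries within a group differed by more than sampling noise.

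Genes were filtered with filterByExpr and scaled by TMM, and 1 model over the 3 groups was fitted with edgeR 4.0.16 (R 4.3.3) by the quasi-likelihood test, with Benjamini-Hochberg adjustment over all 20794 genes and a threshold of 0.05. The script was tested on simulated counts. Total counts of at least 56047830 per library left the spread between libraries as the main limit on precision. Alternatives were DESeq2 1.42.0, limma 3.58.1 on log2(FPKM + 1) and log2(FPKM + 0.1), other scalings and filters, fits to 2 groups, the replicate number as a block, and each library left out. Python 3.11.15 with pandas 2.3.3 summarised the results and matplotlib 3.10.9 drew the figures. Promoters are RefSeq sequences of GRCm38.p6, matched by symbol and credited to that build alone. The members and the lists of related genes and markers were chosen with earlier results of these data known. Members given in full were, in each role, the gene with the highest mean FPKM and those with the smallest p in LNP against bleomycin and bleomycin against control, plus mitosis genes that missed a call most of their set passed. From the related lists, genes with the smallest p among those called were named. Other members are given by fold change, and a few were added after their values were seen: Cdk1, Ccna2, Cenpf, Mcm3, Pola2, Pold1 and the genes that stood out in LNP replicates 1 and 2.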

Additional observations from a re-analysis of the deposited data

How the results depend on the processing

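No fold change of a called member turned round under any alternative. Of the values of the 48 members under 9 alternative settings and with each of the 9 libraries left out, 838 of LNP against bleomycin, 751 of LNP against control and 798 of bleomycin against control kept their side of the threshold. In the same order 0, 77 and 49 fell below it, and 16, 26 and 7 passed it. The cause of these moves was not tested. Mitosis genes called lower in LNP than in bleomycin lung numbered 2 by DESeq2, 2 by limma on log2(FPKM + 1) and 1 by the same without a filter, against 0 by edgeR. Replication genes called higher numbered 1 by DESeq2 in LNP against bleomycin and 9 by DESeq2 in LNP against control. Mitosis genes higher in LNP than in control lung numbered 13 by limma on log2(FPKM + 1) without a filter. A pseudocount shrinks the fold changes of low genes. In bleomycin against control the mitosis median was 1.03 on log2(FPKM + 1), 0.96 without a filter and 1.58 on log2(FPKM + 0.1), and the replication median was 0.15 and 0.19 on log2(FPKM + 1) with and without the filter, which keeps 24 mitosis and 19 replication members. In LNP against control the mitosis median was 0.92 and 0.89 on the same 2 scales.

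Over all genes, LNP against bleomycin called 891 higher and 389 lower. Under DESeq2 these counts were 2038 and 1178, with only the 2 groups in the fit 218 and 100. The lower count was 253 under library size scaling, 197 with no count filter, 237 on log2(FPKM + 0.1) and 193 on log2(FPKM + 1) without a filter. LNP against control called 1030 higher and 641 lower, against 1907 and 1236 under DESeq2 and 679 and 331 with only the 2 groups. Library size scaling moved the median over all genes to 0.16 in LNP against bleomycin and to -0.11 in bleomycin against control. In the 150-base window the CHR was in 37.5% of mitosis and 14.7% of all promoters, the CCAAT box in 79.2% of mitosis, 62.5% of replication and 24.5% of all promoters, and the E2F core in 12.5%, 37.5% and 5.47%, against 62.5% of replication promoters over the whole window.

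Equal replicate numbers showed no sign of pairing the samples, but 3 libraries a group cannot exclude it. The 9 pairs correlated at -0.0772 to 0.0917 in their deviations from group means, and in 4 of 18 cases a library correlated best with its own number in another group. With the number as a replicate block, LNP against bleomycin called 346 genes higher and 86 lower, and LNP against control called 401 lower.

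With each library left out, LNP against bleomycin called 84 to 2987 genes higher and 18 to 2297 lower, LNP against control 491 to 1369 and 226 to 963, and bleomycin against control 1951 to 4374 and 2412 to 4728. The mitosis median was -0.42 to -0.03, 1.32 to 1.77 and 1.75 to 1.87 in these comparisons, and the replication median -0.03 to 0.18, 0.45 to 0.85 and 0.17 to 0.41. Members called were 0 to 2 mitosis genes lower and 0 to 6 replication genes higher in LNP against bleomycin, 14 to 27 and 2 to 11 higher in LNP against control, and 24 to 28 and 5 to 9 higher in bleomycin against control. Mitosis minus replication was 0.94 to 1.05 in LNP and 1.37 to 1.6 in bleomycin lung.

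With 3 libraries a group, 1 of which stood apart in the LNP group, single genes carried wide intervals. Whole-lung RNA leaves the dividing cell types unknown, and levels of RNA do not count dividing cells. Depth limits the lowest members most, Ndc80 with 36 reads in its lowest library.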
